A study of Glycine max with 18 samples.

Results

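The *GIGANTEA* (*GI*) and *FKF1* genes of soybean were followed over a day in constant light. They are *GmGIa* (Glyma.10G221500), which underlies the maturity locus *E2*, its paralog *GmGIb* (Glyma.20G170000), and a pair of *FKF1* genes, Glyma.05G239400 on chromosome 5 and Glyma.08G046500 on chromosome 8. These 4 genes were chosen by identifier among the 55589 annotated genes in every library, and all 4 were among the 24620 expressed genes, defined as those with a mean of at least 1 TPM, the length-corrected expression unit used throughout, at any time point.

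GI is a large nuclear protein of plants that links the circadian clock to flowering time, and FKF1 is an F-box protein with a LOV domain that senses blue light. In *Arabidopsis thaliana*, the proteins bind each other in blue light and mark CYCLING DOF FACTOR repressors for degradation, which releases transcription of *CONSTANS* and of the florigen gene *FT*. There, *GI* and *FKF1* transcripts peak together late in long days and apart from each other in short days. In soybean, loss of *E2* function makes plants flower and mature earlier.

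The study sampled the first trifoliate leaf of wild-type Ws82, the cultivar in which the soybean reference genome was made, at ZT24, ZT28, ZT32, ZT36, ZT40 and ZT44 (hours in zeitgeber time), with 3 biological replicates (L, M and R) at each time point and 18 RNA-seq libraries in all. Every plant had been moved to constant light 1 d before the first sample, so no group has a dark or entrained control and the time points are compared only with each other. The sample labels give days of 8 h light and 16 h dark for about 18 d before constant light at 25 °C, while the design text of the series gives 12 h light and 12 h dark for 14 d. The study's text gives the same light and dark hours and days as the labels, with a slightly lower temperature in constant light. The labels count the time points from 0 h of sampling, and the ZT names of the study are used here. Each library was made from total RNA depleted of ribosomal RNA and held between 4.93 and 7.24 Gb of aligned sequence, except at ZT44, where the 3 libraries were the shallowest, at 3.11, 3.27 and 3.53 Gb. ZT44 also had the lowest mean of all 4 genes, and time point and depth cannot be told apart there. ZT32 R stood apart, with 227701 assembled loci without strand against a median of 5199, and with annotated genes that sum to 51.3% of 1000000 TPM against a median of 68.8%. The ranges, the steps on either side of ZT32 and the differences between genes are given with and without it.

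The 4 genes lie on the reference Gmax_Wm82_a2_v1. *GmGIa* spans chr10:45294735-45316121 on the plus strand and *GmGIb* spans chr20:40759508-40777209 on the minus strand. The *FKF1* genes are shorter, at chr5:41510779-41514170 and chr8:3658444-3661735, both on the minus strand. Another annotated gene, Glyma.20G170100, lies inside *GmGIb*, so reads there may have been divided between them. How the quantification divided reads that match both paralogs of a pair was not tested.

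All 4 genes were at or below 0.519 TPM in every library of ZT24, had their highest means at ZT28 or ZT32, were lower at ZT36 and were below 1 TPM in every library of ZT40 and ZT44. *GmGIa* and *GmGIb* were already high at ZT28, whereas the *FKF1* genes stayed below 1 TPM at ZT28 and were high at ZT32. All 4 fell together by ZT36 and again by ZT40. Over the 6 time points all 4 passed limma's moderated F-test on log2(TPM + 1), with adjusted p from 2e-11 (*GmGIb*) to 1.3e-08 (*FKF1* on chromosome 5) after Benjamini-Hochberg adjustment over 24620 genes. This test called 76.3% of all genes (66.1% with quantile normalization), so passing it does not set the 4 genes apart. The distance between the highest and the lowest time-point mean was 2.93 on the log2 scale for *GmGIa*, 2.77 for *GmGIb*, 2.71 for *FKF1* on chromosome 5 and 2.77 for *FKF1* on chromosome 8, beside a median of 1.04 over all expressed genes. Without ZT32 R it was 3.12, 3.14, 3.31 and 3.15 in the same order of genes. The size of these ranges and their order depend on the scale, with 5.47, 5.54, 5.04 and 5.42 for a pseudocount of 0.1 and 4.90, 5.18, 4.87 and 5.11 when the 100 highest genes were left out of the scaling.

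*GmGIa* had 0.516, 0.517 and 0.313 TPM in L, M and R at ZT24, 4.77, 11.2 and 6.85 TPM at ZT28, and 6.79, 10.3 and 2.64 TPM at ZT32. It had 1.80, 2.70 and 2.55 TPM at ZT36, 0.0717, 0.211 and 0.150 TPM at ZT40, and 0.179, 0 and 0.0583 TPM at ZT44. The ZT28 libraries were all above those of ZT24, the values of ZT28 and ZT32 overlapped, and ZT36 lay above ZT40 in every library. Its mean was 7.61 ± 3.29 TPM (SD, n = 3) at ZT28, 17-fold that at ZT24 (0.449 ± 0.118 TPM). In log2(TPM + 1), from here on the log2 scale, ZT28 was higher than ZT24 by 2.51 ± 0.29 (SE, limma, adjusted p = 2e-07). ZT32 did not differ from ZT28 beyond the spread, at 6.58 ± 3.83 TPM in ZT32 and 7.61 ± 3.29 TPM in ZT28 (difference -0.26 ± 0.29, SE, limma, adjusted p = 0.64). Without ZT32 R that difference was 0.19 (adjusted p = 0.79), without ZT28 M it was 0.02 (adjusted p = 0.98), and ZT32 then held the higher mean, so the data do not say which of ZT28 and ZT32 is the peak of *GmGIa*.

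*GmGIb* had 0.178, 0.208 and 0.266 TPM in L, M and R at ZT24, 3.17, 6.75 and 4.19 TPM at ZT28, and 7.44, 9.02 and 3.18 TPM at ZT32. It had 2.03, 3.02 and 2.39 TPM at ZT36, 0.166, 0.158 and 0.127 TPM at ZT40, and 0, 0 and 0.126 TPM at ZT44. The ZT28 libraries were again all above those of ZT24. ZT32 L and M lay above all ZT28 libraries, while ZT32 R lay below ZT28 M and R. ZT28 was 21.7-fold ZT24 in mean TPM, and higher by 2.18 ± 0.25 in log2 (SE, limma, adjusted p = 2.4e-07). ZT32, at 6.55 ± 3.02 TPM, did not pass the test against ZT28, at 4.70 ± 1.84 TPM (difference 0.36 ± 0.25, SE, limma, adjusted p = 0.44). The difference passed without ZT32 R, at 0.74 (adjusted p = 0.04), and with quantile normalization, at 0.65 (adjusted p = 0.0065).

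*FKF1* on chromosome 5 had 0.519, 0.455 and 0.387 TPM in L, M and R at ZT24, 0.958, 0.791 and 0.968 TPM at ZT28, and 9.27, 10.2 and 2.14 TPM at ZT32. It had 2.73, 4.30 and 2.72 TPM at ZT36, 0.383, 0.778 and 0.339 TPM at ZT40, and 0.0678, 0.0546 and 0.134 TPM at ZT44. Every ZT32 library lay above every ZT28 library, including ZT32 R, whose own value was below all 3 values of ZT36. ZT28 did not pass the test against ZT24 (difference 0.39 ± 0.29, SE, limma, adjusted p = 0.44). ZT32, at 7.21 ± 4.41 TPM, was 7.96-fold ZT28, at 0.906 ± 0.0998 TPM, and higher by 1.90 ± 0.29 in log2 (SE, limma, adjusted p = 3.6e-05). Without ZT32 R this difference was 2.49 (adjusted p = 1.4e-09).

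*FKF1* on chromosome 8 had 0.102, 0.129 and 0.132 TPM in L, M and R at ZT24, 0.562, 0.441 and 0.653 TPM at ZT28, and 7.50, 9.20 and 3.21 TPM at ZT32. It had 1.91, 2.09 and 1.45 TPM at ZT36, 0.267, 0.103 and 0.0932 TPM at ZT40, and 0.0727, 0.0727 and 0 TPM at ZT44. Every ZT32 library, including ZT32 R, lay above every library of the other time points, which held for none of the other 3 genes. ZT32, at 6.64 ± 3.09 TPM, was 12.0-fold ZT28, at 0.552 ± 0.107 TPM, and higher by 2.21 ± 0.22 in log2 (SE, limma, adjusted p = 4.1e-08). Without ZT32 R it was 2.59 (adjusted p = 6e-11). All 3 ZT28 libraries lay above those of ZT24, but the difference of 0.47 ± 0.22 (SE) did not pass the test (adjusted p = 0.18, limma). Without ZT32 R, which enters the shared estimate of the spread, its adjusted p was 0.046, and it also passed with quantile normalization (0.61, adjusted p = 0.0063), with a pseudocount of 0.1 (1.55, adjusted p = 0.018) and with the 100 highest genes left out of the scaling (1.31, adjusted p = 0.0067).

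**Figure D1:**
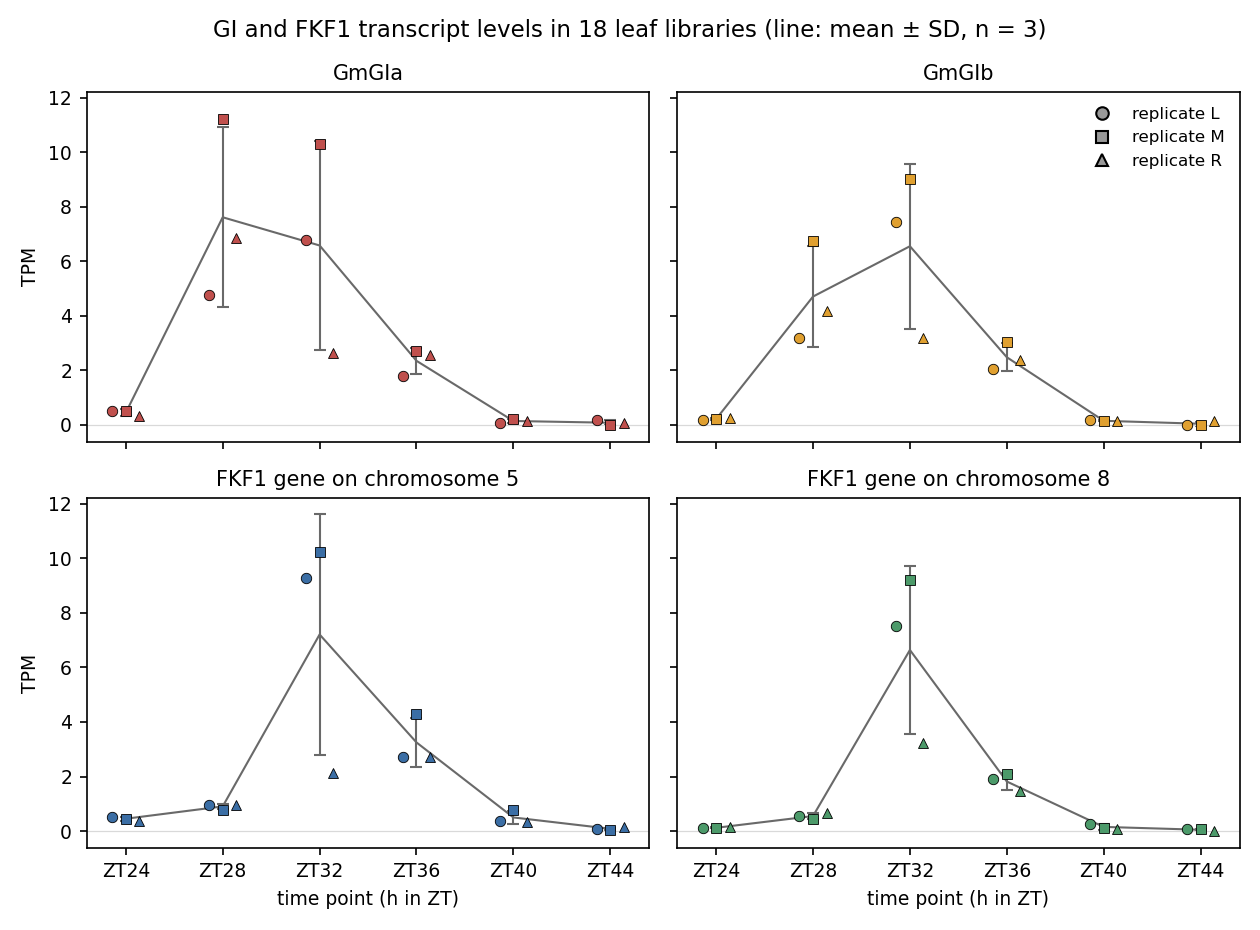
TPM (y axis) of the 4 genes at 6 time points (x axis) in each library, with the replicate shown by the marker and the line and bars giving the mean ± SD of 3 libraries. *GmGIa* and *GmGIb* are high at ZT28 and ZT32, the *FKF1* genes stay below 1 TPM at ZT28, and ZT32 R is the lowest ZT32 library in the annotated TPM of all 4.

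Between ZT28 and ZT24, 2 of the 4 genes rose with the TPM scaling, both of them *GI* genes, where 4.65% of all genes were called higher. With quantile normalization, *FKF1* on chromosome 8 was also called higher (0.61, adjusted p = 0.0063, limma), as were 10.7% of all genes. Between ZT32 and ZT28, 2 of the 4 rose with the TPM scaling, both of them *FKF1* genes, where 2.48% of all genes were called higher. With quantile normalization, *GmGIb* was also called higher (0.65, adjusted p = 0.0065, limma), as were 7.73% of all genes. The median gene moved by -0.12 on the log2 scale in the first of these contrasts and by -0.15 in the second, and relative to it the *GI* genes rose by 2.62 (*GmGIa*) and 2.30 (*GmGIb*), and the *FKF1* genes by 2.06 (chromosome 5) and 2.36 (chromosome 8). Of the genes past the F-test, 7.76% were highest at ZT28 and 5.60% at ZT32, the least common peak time with the TPM scaling. These peak shares were not computed with quantile normalization and may depend on the scaling.

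The decline was shared. ZT36 was lower than ZT32 in all 4 genes, where 7.82% of all genes were called lower (20.1% with quantile normalization), although the median gene was higher at ZT36 than at ZT32 by 0.53. Relative to that median the genes fell by 1.57 (*GmGIa*), 1.56 (*GmGIb*), 1.29 (*FKF1* on chromosome 5) and 1.88 (*FKF1* on chromosome 8). Without ZT32 R, ZT36 minus ZT32 was -1.50 for *GmGIa*, -1.41 for *GmGIb*, -1.36 for *FKF1* on chromosome 5 and -1.73 for *FKF1* on chromosome 8. The call of *FKF1* on chromosome 5 (difference -0.77, adjusted p = 0.028, limma) was lost without ZT32 L (-0.50, adjusted p = 0.17), ZT32 M (-0.44, 0.21), ZT36 L (-0.68, 0.077) or ZT36 R (-0.68, 0.088), and with a pseudocount of 0.1 (-0.87) or no filter on low genes (-0.77), at an adjusted p of 0.1 in each. ZT40 was lower than ZT36 in all 4 genes, where 2.45% of all genes were called lower (5.61% with quantile normalization) and the median gene moved by 0.06. In mean TPM, ZT36 was 16.3-fold ZT40 for *GmGIa*, 16.5-fold for *GmGIb*, 6.50-fold for *FKF1* on chromosome 5 and 11.8-fold for *FKF1* on chromosome 8.

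In the order of levels, *GmGIa* and *GmGIb* had ZT28 and ZT32 on top without a resolved difference, then ZT36. ZT36 was below ZT28 by 1.30 for *GmGIa* (adjusted p = 5e-04, limma) and by 0.67 for *GmGIb* (adjusted p = 0.028), and the call of *GmGIb* was lost without ZT28 M (difference -0.43, adjusted p = 0.18), ZT36 L (-0.58, 0.083) or ZT36 R (-0.66, 0.066), with a pseudocount of 0.1 (-0.85, 0.098) and with no filter (-0.67, 0.094). For the *FKF1* genes ZT32 was on top and ZT36 second, above ZT28 by 1.14 on chromosome 5 (adjusted p = 0.0022) and by 0.86 on chromosome 8 (adjusted p = 0.0025). ZT28 therefore ranked above ZT36 for the *GI* genes and below it for the *FKF1* genes. Over all genes, 38.5% were called higher and 11.8% lower at ZT36 than at ZT28, and 23.9% and 19.9% with quantile normalization. Among ZT24, ZT40 and ZT44, 0 of 4 genes passed limma's contrasts, with 0 of 4 also at an unadjusted p under 0.05 in each of the 3 contrasts. Of all genes, 26.4% were called higher and 7.29% lower at ZT40 than at ZT24, 4.72% and 5.89% at ZT44 than at ZT24, and 4.31% and 16.3% at ZT44 than at ZT40. With quantile normalization these shares were 15.5% and 14.1%, 8.33% and 8.81%, and 8.82% and 7.88%, so the balance of higher and lower calls over all genes depends on the scaling. The read coverage behind these low values was at most 3.41-fold at ZT24, 3.64-fold at ZT40 and 0.572-fold at ZT44. It was 14.97-fold to 53.3-fold at ZT32, so these differences rest on few reads, fewest at ZT44. With a pseudocount of 0.1, ZT44 passed as lower than ZT24 for *GmGIa* (-1.72, adjusted p = 0.016) and *FKF1* on chromosome 5 (-1.59, adjusted p = 0.024), and as lower than ZT40 for *FKF1* on chromosome 5 (-1.65, adjusted p = 0.015). With the 100 highest genes left out of the scaling, the same 3 contrasts passed (-1.22, adjusted p = 0.014, -1.17, 0.028, and -1.18, 0.025), and so did ZT40 as lower than ZT24 for *GmGIa* (-0.94, adjusted p = 0.034). At ZT44, *GmGIa* and *FKF1* on chromosome 8 were each listed at 0 TPM in 1 library and *GmGIb* in 2.

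A cosine with the period fixed at 24 h passed limma's test for all 4 genes (adjusted p from 3.3e-09 to 4.2e-06), as it did for 64.7% of all genes (55.6% with quantile normalization). It peaked at ZT30.9 for *GmGIa*, ZT31.5 for *GmGIb*, ZT33.0 for *FKF1* on chromosome 5 and ZT32.8 for *FKF1* on chromosome 8. The mean of the *FKF1* peaks came 1.75 h after that of the *GI* peaks, and the distance lay between 1.27 and 1.94 h when any 1 library was left out. A 4-h sampling interval and less than 1 cycle of data set the limit of these peak times, and the period itself cannot be estimated.

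Whether *GI* and *FKF1* coincide was tested within libraries, where a difference between genes depends less on how a library was scaled. The mean log2(TPM + 1) of the *FKF1* pair minus that of the *GI* pair was -1.97 ± 0.57 at ZT28 (SD, n = 3). At the other time points it was near 0, with -0.06 ± 0.02 at ZT24, 0.04 ± 0.15 at ZT32 and 0.02 ± 0.19 at ZT36. Later it was 0.19 ± 0.09 for ZT40 and 0.01 ± 0.07 for ZT44. This scale compresses values below 1 TPM, where the annotated TPM of all 4 genes lay at ZT24, ZT40 and ZT44. Values near 0 there do not show equal levels. ZT28 stood alone, with -1.49, -2.60 and -1.82 in L, M and R, below all 15 other libraries. The difference varied over time (permutation test of the F statistic with 100000 resamples, p = 0.0018), and it was higher at ZT32 than at ZT28 by 2.01. The exact permutation test of those 6 libraries gave p = 0.10, the smallest that 3 against 3 allows. ZT32 R, the lowest ZT32 library in the annotated TPM of all 4 genes, had -0.10 here, close to 0.20 in L and 0.01 in M. Without that library the step between ZT32 and ZT28 was 2.08 (permutation p = 0.0014).

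On the linear scale, the summed TPM of the *FKF1* pair over that of the *GI* pair was 0.896, 0.805 and 0.896 in L, M and R at ZT24. It was 0.191, 0.0685 and 0.147 at ZT28, 1.18, 1.00 and 0.919 at ZT32, and 1.21, 1.11 and 0.845 at ZT36. It was 2.73, 2.39 and 1.56 at ZT40, where the *FKF1* pair summed to only 0.433 to 0.881 TPM and the *GI* pair to 0.238 to 0.369 TPM. In annotated TPM, both pairs were thus at about equal levels at ZT32 and ZT36, and only at ZT28 was *GI* high with *FKF1* low. Same-strand assembled loci in ZT32 L, M and R had 11.5, 13.2 and 14.7 TPM at *GmGIa* and 8.81, 14.3 and 4.29 TPM at *GmGIb*. Those at *FKF1* had 9.27, 10.2 and 2.14 TPM on chromosome 5 and 7.50, 9.20 and 7.72 TPM on chromosome 8. The ratio of the pairs was not computed from assembled loci, so equal levels are shown for the annotated TPM only.

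**Figure D2:**
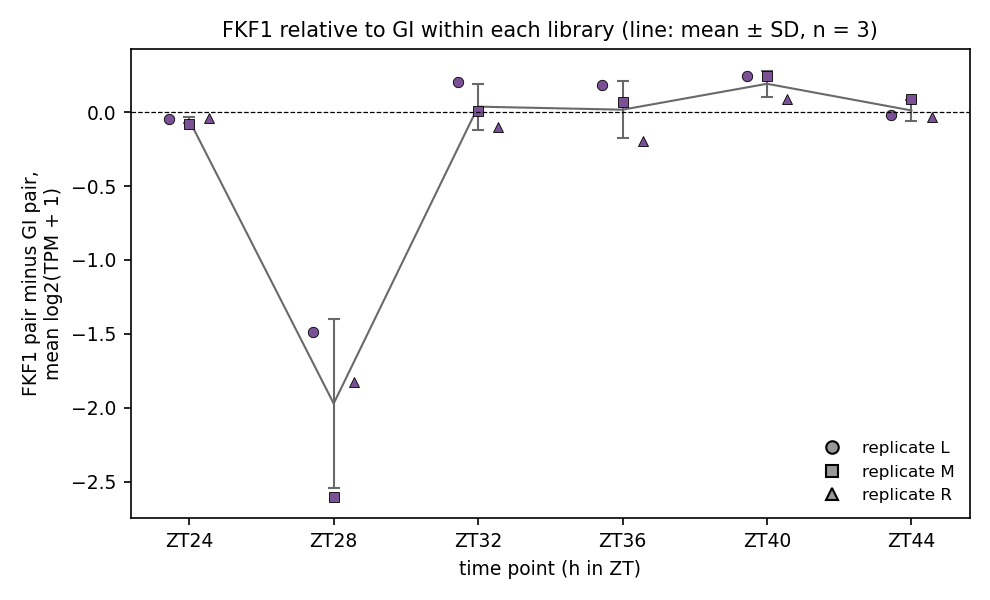
Mean log2(TPM + 1) of the *FKF1* pair minus that of the *GI* pair (y axis) in each library by time point (x axis), with the line and bars giving the mean ± SD of 3 libraries. The ZT28 libraries sit between -2.60 and -1.49, below all other libraries, which lie between -0.20 and 0.24. The scale compresses values below 1 TPM.

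All 6 pairs among the 4 genes were compared in the same way. No other pairs of genes were compared, so the share of all pairs that would pass this permutation test is not known. The 4 differences of an *FKF1* gene over a *GI* gene each varied over time (adjusted p from 0.002 to 0.0026, permutation test, Benjamini-Hochberg over 6 pairs), with ZT32 above ZT28 by 1.54 to 2.47, and by 1.76 to 2.39 without ZT32 R. The largest of these was that of *FKF1* on chromosome 8 over *GmGIa*, at 2.47, and the smallest that of *FKF1* on chromosome 5 over *GmGIb*, at 1.54.

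The *GI* paralogs also differed in profile. *GmGIb* was 25.6%, 28.7% and 46.0% of the summed *GI* TPM in L, M and R at ZT24, where that sum was below 1 TPM. Its share was 39.97%, 37.6% and 38.0% at ZT28, 52.3%, 46.7% and 54.7% at ZT32 and 53.1%, 52.8% and 48.4% at ZT36. *GmGIb* was thus below *GmGIa* in every library of ZT24 and ZT28, and the paralogs were close to even at ZT32 and ZT36. The shares at ZT40 (42.9% to 69.9%) and ZT44 (0% and 68.3%, with neither paralog above 0 in M) rest on sums under 0.4 TPM. *GmGIb* minus *GmGIa* averaged 0.05 ± 0.20 at ZT32 and -0.57 ± 0.10 at ZT28 on the log2(TPM + 1) scale (SD, n = 3), and the difference varied over time (adjusted p = 0.0032, permutation test). Without ZT32 R, ZT32 was above ZT28 by 0.54, against 0.62 with it. With a pseudocount of 0.1, which gives more weight to the values near 0, the adjusted p was 0.22, although ZT32 stayed above ZT28 by 0.73.

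The *FKF1* paralogs differed less clearly. The gene on chromosome 8 was 16.5%, 22.1% and 25.5% of the summed *FKF1* TPM in L, M and R at ZT24, 37.0%, 35.8% and 40.3% at ZT28, 44.7%, 47.4% and 60.0% at ZT32, and 41.2%, 32.7% and 34.9% at ZT36. The share was 11.7% to 41.0% at ZT40 and 51.7%, 57.1% and 0% at ZT44, where the sum was below 0.15 TPM. The gene on chromosome 8 was thus above that on chromosome 5 in ZT32 R, ZT44 L and ZT44 M alone. The difference of chromosome 8 over chromosome 5 was -0.30 ± 0.04 at ZT28, 0.01 ± 0.37 at ZT32 and -0.58 ± 0.21 at ZT36, and its variation over time passed the threshold narrowly (adjusted p = 0.041, permutation test). That call was lost without any 1 of 11 of the 18 libraries, namely any library of ZT24 or ZT28, ZT36 M, ZT36 R, ZT40 R, ZT44 L or ZT44 M, with adjusted p of 0.056 to 0.11. It was also lost with a pseudocount of 0.1 (adjusted p = 0.074) and with a replicate block (adjusted p = 0.064). Without ZT32 R the call held (adjusted p = 0.045), but ZT32 was above ZT28 by 0.093, against 0.30 with that library.

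**Figure D3:**
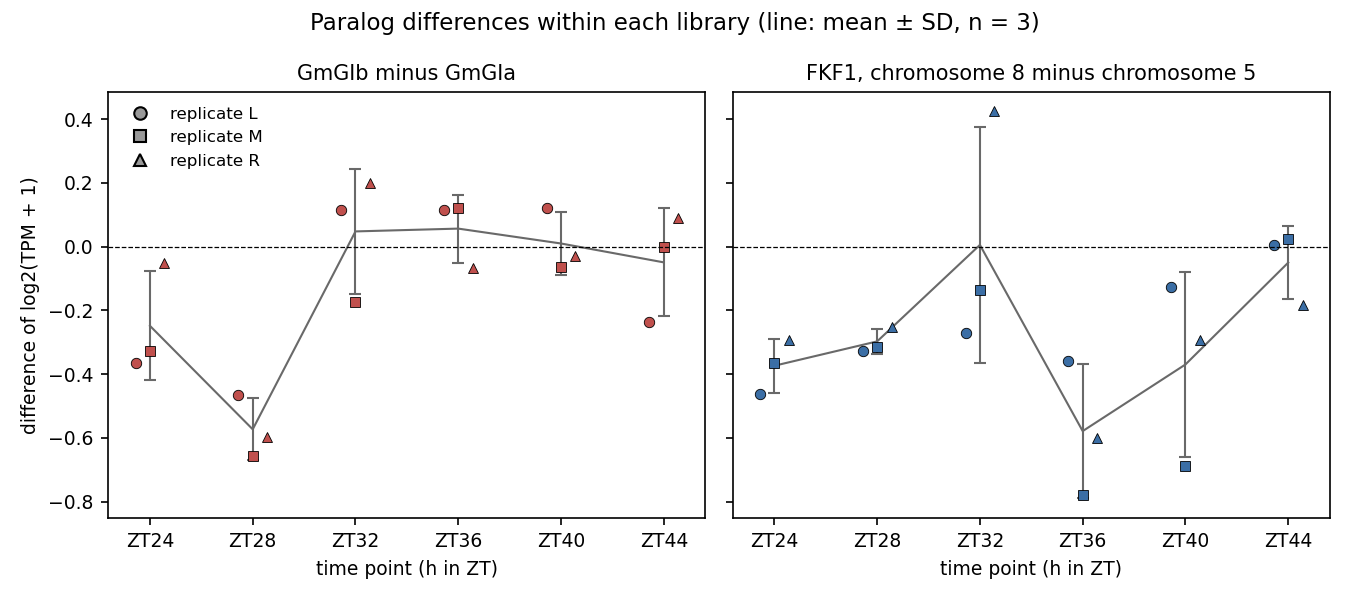
Difference of log2(TPM + 1) between paralogs (y axis) in each library by time point (x axis), with *GmGIb* minus *GmGIa* on the left and *FKF1* on chromosome 8 minus chromosome 5 on the right, and the line and bars giving the mean ± SD of 3 libraries. On this scale, which compresses values below 1 TPM, *GmGIb* minus *GmGIa* is -0.57 at ZT28, and ZT32 R is the highest library in the right panel (0.42).

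Likeness of profiles was described by Pearson's r of log2(TPM + 1) over the 18 libraries, which share their scaling and time points between genes. *GmGIa* and *GmGIb* had r = 0.98, and among 24619 other genes *GmGIa* was the nearest to *GmGIb* and *GmGIb* the second nearest to *GmGIa*. The *FKF1* genes had r = 0.97, and the gene on chromosome 8 was the nearest to that on chromosome 5. Between *GI* and *FKF1*, r was 0.70 to 0.81, with *FKF1* genes at ranks 265 to 666 for the *GI* genes. The gene most like the *GI* pair was Glyma.17G211700 (r = 0.98), with 8.11 ± 1.90 TPM at ZT28 and 6.45 ± 2.82 TPM at ZT32. The gene most like the *FKF1* pair was Glyma.02G230800 (r = 0.96), with 0.350 ± 0.0913 TPM for ZT28, 13.2 ± 3.90 TPM for ZT32 and 5.66 ± 0.821 TPM for ZT36. The files give neither of these genes a name.

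The profiles of 12 clock and light-signalling genes place the 4 genes within the day. All 12 passed the F-test and the cosine test, as did 76.3% and 64.7% of all genes (66.1% and 55.6% with quantile normalization). *GmLHY1a*, *GmLHY1b* and *GmLHY2a*, morning MYB repressors, were highest at ZT24 and *GmLHY2b* at ZT44, and *GmPRR5d*, a pseudo-response regulator, was highest at ZT28, at 40.9 ± 14.9 TPM. *GmPRR5b* was the only 1 of the 12 with its highest mean at ZT32, at 10.6 ± 5.47 TPM, and its r was 0.95 with the *FKF1* pair and 0.86 with the *GI* pair. *GmTOC1c*, *GmCOR28b* and the evening complex genes *GmLUX1* and *GmLUX2* were highest at ZT36, after all 4 genes, and *GmRVE2d* at ZT40. Of the 12, *GmRVE2d* had the most negative r with the *GI* pair (-0.89), with 0.404 ± 0.131 TPM at ZT28 and 47.4 ± 1.32 TPM at ZT40. *GmPIF4*, a light-signalling factor, was highest at ZT24.

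**Figure D4:**
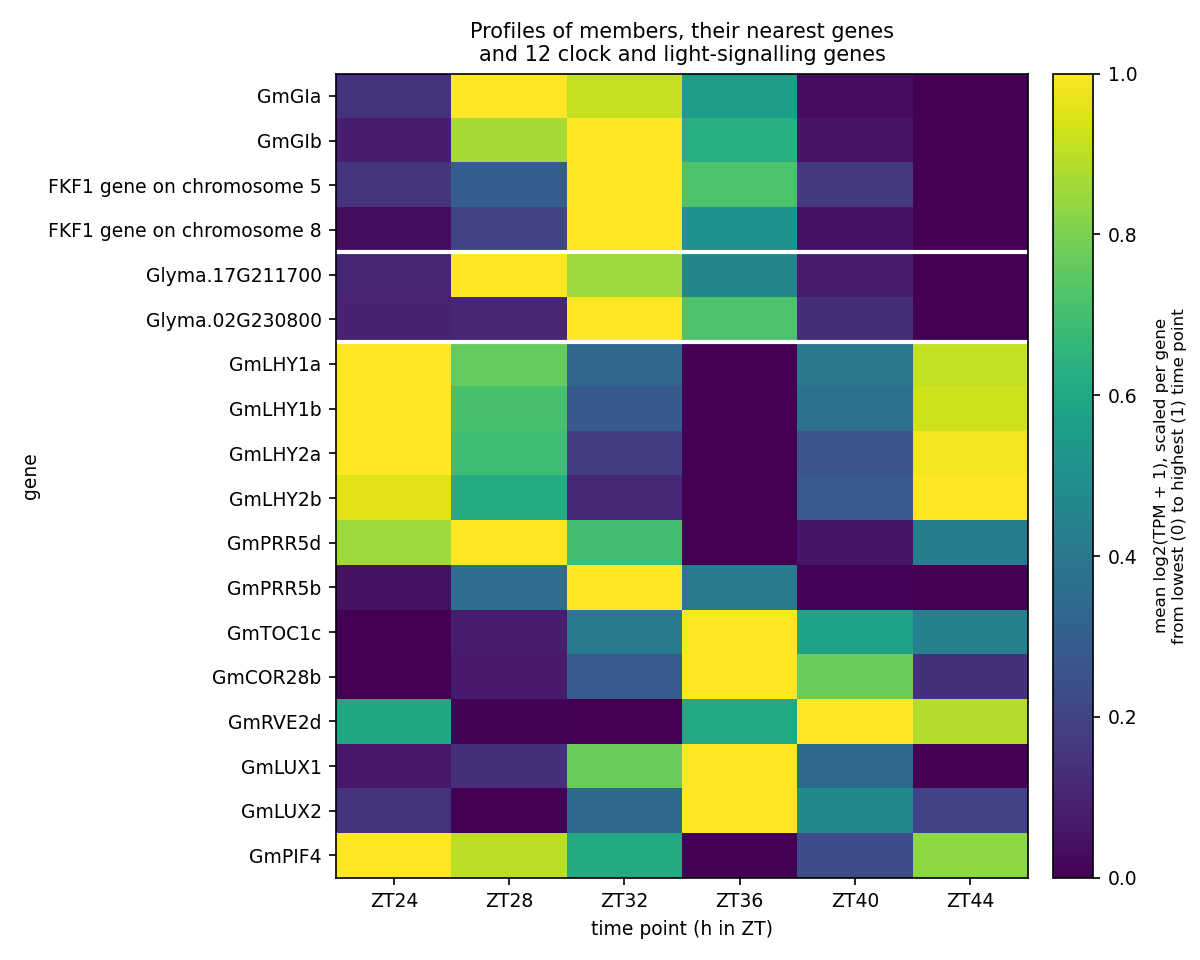
Mean log2(TPM + 1) at each time point (x axis), scaled for each gene (y axis) from its lowest (0) to its highest (1) time point and shown by colour, for the 4 genes, the genes nearest to each pair and the 12 clock and light-signalling genes. The 4 genes are brightest at ZT28 or ZT32, between *GmPRR5d* at ZT28 and the genes that are highest at ZT36.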

How the data were processed

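RNA-seq libraries of wild-type Ws82 leaves were analysed, 18 in all. The authors trimmed the reads, aligned them to Gmax_Wm82_a2_v1 with HISAT2 2.2.1 and quantified annotated genes and assembled loci with StringTie. The deposited tables hold read coverage, FPKM and TPM, and the TPM column is treated as a signal because the annotated genes and the assembled loci together sum to over 1000000. Where a table held the same gene on 2 lines (11 libraries), the lines were added up. Read counts were not used here, so no count model was run and no counting interval is given.

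TPM was analysed as log2(TPM + 1), which understates changes of low genes. Time points were compared with limma 3.58.1 under R 4.3.3, with a trended prior, all 18 libraries and no block, by an F-test, a 24-h cosine and contrasts, with Benjamini-Hochberg adjustment over 24620 genes and a threshold of 0.05. Differences between members were tested by permutation (100000 resamples) with numpy 2.4.6 and scipy 1.17.1 under Python 3.11.15. The scripts were tested on simulated data. Replicates are labelled as independent biological replicates.

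Members and gene lists were chosen with earlier results of these data known. Named genes are the 4 members, 12 clock and light-signalling genes, and the gene with the highest Pearson r to each pair. Of the 12, the names of *GmPRR5b*, *GmTOC1c*, *GmCOR28b* and *GmRVE2d* were not found beside an identifier in the study's text and are used as given in earlier work on these data. The RefSeq gene table used for names (59048 genes, assembly Glycine_max_v4.0, a build other than that of the files) matched 0 of the 55589 identifiers and gives no products or sequences, so leaf, root and seed marker lists and a list of photoperiod genes were not analysed, and no sequence is shown. It places genes named *E2* and *GIGANTEA* on the chromosomes of *GmGIa* and *GmGIb* and one named *FKF1* on chromosome 5. The choices varied were the pseudocount (0.1), the filter (5 TPM, or none), the scaling (quantile normalization, or without the 100 highest genes) and the unit (FPKM, coverage), beside eBayes without trend, a replicate block, assembled loci that overlap a gene by at least 50%, and each library left out. *GmGIb* with its overlapping gene added was chosen after seeing the data.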

Additional observations from a re-analysis of the deposited data

How the results depend on the processing

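The F-test and the cosine of all 4 genes, the 4 differences of an *FKF1* gene over a *GI* gene and that of the *FKF1* pair over the *GI* pair stayed past the threshold in the same direction under every alternative run. The highest time point of *GmGIa* moved to ZT32 in 5 of 28 settings, while ZT32 stayed the highest of the other 3 genes, and the lowest moved to ZT40 for 3 genes with quantile normalization and for the *FKF1* genes with assembled loci. With a pseudocount of 0.1, *GmGIb* over *GmGIa* (ZT32 minus ZT28, 0.73, adjusted p = 0.22) and chromosome 8 over chromosome 5 of *FKF1* (0.67, adjusted p = 0.074) no longer passed. The letters L, M and R did not pair the libraries (median r of deviations between same letters -0.01, from -0.37 to 0.32). The replicate block left the *FKF1* paralog difference at 0.30 with an adjusted p of 0.064, and changed no other call. Leaving out 1 library gave that difference 0.093 (without ZT32 R) to 0.44. Of 60 contrasts between time points, 41 passed. Per contrast, 2.48% to 54.7% of all genes were called higher and 2.45% to 25.7% lower. Over 1560 values of the 60 contrasts under alternatives, 20 lost and 24 gained a call and 12 changed sign, all 12 without a call in either. Assembled loci were not among the alternatives for these contrasts. *GmGIa* at ZT32 minus ZT28 became 0.037 with quantile normalization, 0.033 with the 100 highest genes left out, and -0.62 to 0.19 without any 1 library, above 0 without ZT28 M (0.025) or ZT32 R (0.19). With quantile normalization, ZT44 minus ZT40 became 0.077 for *GmGIa*, 0.0045 for *GmGIb* and 0.029 for *FKF1* on chromosome 8, and ZT40 minus ZT24 became -0.19 for *FKF1* on chromosome 5 and -0.051 on chromosome 8. For chromosome 5 it was also -0.010 with FPKM and, without any 1 library, -0.094 (ZT40 M) to 0.11, and for chromosome 8 -0.030 (ZT40 L) to 0.076. The cause of these changes was not tested. Read depth limits the values at ZT24, ZT40, ZT44 and, for *FKF1*, ZT28, where the calls gained with a pseudocount of 0.1 or the rescaling lie on values below 1 TPM.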

Other observations

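Same-strand assembled loci at *GmGIb* reached past its annotated 3′ end by 5705 to 6392 bases in 8 libraries, and no annotated gene lies in that stretch. In ZT28 L, ZT28 R and ZT36 L there were 2 such loci, so the one reaching past the end may be separate there. StringTie assembled a same-strand locus at *GmGIa* in 16 libraries, at *GmGIb* in 14, at *FKF1* on chromosome 5 in 11 and at *FKF1* on chromosome 8 in 10. It assembled no locus on the opposite strand of any of the 4, but loci without strand lay over *GmGIa* in 2 libraries and *GmGIb* in 3. In ZT32 R, same-strand loci at *GmGIa* summed to 14.7 TPM, against 11.5 in L and 13.2 in M. Those at *FKF1* on chromosome 8 summed to 7.72 TPM, against 7.50 and 9.20. Those at *GmGIb* had 4.29 TPM, against 8.81 and 14.3, and those at *FKF1* on chromosome 5 had 2.14 TPM, against 9.27 and 10.2. Glyma.20G170100, the gene inside *GmGIb*, had 0.216, 1.54 and 0.697 TPM in L, M and R at ZT28 and 0.812, 1.61 and 1.07 TPM at ZT32. Adding its TPM to that of *GmGIb* gave a range of 2.97 on the log2 scale, with ZT32 still the highest time point.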
